A study of Mus musculus with 12 samples.

Results

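Metallothioneins bind zinc and copper inside cells, and transporters of the Slc30 and Slc39 families move zinc and manganese across membranes. The 8 genes described here were Mt1 and Mt2, the zinc exporter Slc30a1, the manganese exporter Slc30a10, and the importers Slc39a4, Slc39a5, Slc39a8 and Slc39a14. They were chosen by gene symbol from the 17734 genes of the expression table, and all 8 were in it. Slc30a10 was put on the list after its difference with berberine (BBR) had been seen, so its values are given as a description and it was tested in no comparison. The other 7 members were tested.

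Rectal RNA was sequenced from 12 male C57BL/6 mice aged 8 to 10 weeks, with 3 mice in each of 4 groups, and the labels name the tissue colorectum. Normal mice had water alone. Colitis mice drank 2.5% dextran sulfate sodium (DSS), a polymer that injures the colonic epithelium, for 7 days. The BBR groups, normal mice receiving BBR as well as colitis mice receiving it, had 100 mg/kg of this plant alkaloid daily by gavage, for 6 days by the treatment text of the labels, while the group labels name 7. The labels number the mice of both normal groups 1, 3 and 4. The colitis mice are 1, 2 and 4, and those that also had BBR are 2, 3 and 4. The labels do not tie a number to a litter, a day or a batch. In such bulk tissue, fewer cells of a type and less RNA per cell cannot be told apart.

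Metallothionein genes are switched on by zinc through the metal sensor Mtf1, a transcription factor that binds short promoter sequences called metal response elements. The same sensor acts on Slc30a1, which sends zinc out of the cell, so a rise in metallothionein and Slc30a1 RNA is a known reading of zinc load. Glucocorticoids and the inflammatory cytokine IL-6 also raise metallothionein RNA. In the intestine, Slc39a4 takes up dietary zinc at the luminal face of the epithelium and Slc39a5 takes up zinc at its basal face. Slc39a8 and Slc39a14 import both zinc and manganese, and Slc30a10 exports manganese into the gut lumen.

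The promoters of the metallothionein pair and of both exporters are shown because the 4 genes reached their highest level in the same mouse. Each run is the 250 bases before the start that the promoter table uses, 5′ to 3′ on the strand of the gene, from RefSeq on GRCm38.p6. Capitals mark the core of the metal response element, searched as TGCACNC and TGCGCNC on both strands. The Mt1 run is chr8:94178839-94179088, the Mt2 run is chr8:94172368-94172617, the Slc30a1 run is chr1:191906531-191906780 and the Slc30a10 run is chr1:185454598-185454847, all on the plus strand. The RefSeq gene spans of Mt1 and Slc30a1 begin farther upstream, so that 206 and 84 bases of these 2 runs lie within the annotated gene.
Mt1: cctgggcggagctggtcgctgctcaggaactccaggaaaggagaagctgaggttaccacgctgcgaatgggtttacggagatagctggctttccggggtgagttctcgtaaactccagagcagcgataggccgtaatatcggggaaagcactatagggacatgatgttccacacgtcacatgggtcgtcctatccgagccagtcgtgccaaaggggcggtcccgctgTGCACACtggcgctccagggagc
Mt2: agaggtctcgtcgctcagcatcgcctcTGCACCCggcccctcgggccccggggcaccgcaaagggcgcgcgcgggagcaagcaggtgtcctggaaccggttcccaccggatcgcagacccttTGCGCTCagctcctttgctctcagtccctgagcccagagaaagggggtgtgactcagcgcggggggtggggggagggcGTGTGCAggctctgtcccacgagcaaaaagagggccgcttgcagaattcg
Slc30a1: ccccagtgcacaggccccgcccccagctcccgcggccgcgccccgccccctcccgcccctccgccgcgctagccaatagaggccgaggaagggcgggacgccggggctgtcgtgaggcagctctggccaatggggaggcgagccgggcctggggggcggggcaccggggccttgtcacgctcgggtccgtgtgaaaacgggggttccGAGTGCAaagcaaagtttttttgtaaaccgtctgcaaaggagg
Slc30a10: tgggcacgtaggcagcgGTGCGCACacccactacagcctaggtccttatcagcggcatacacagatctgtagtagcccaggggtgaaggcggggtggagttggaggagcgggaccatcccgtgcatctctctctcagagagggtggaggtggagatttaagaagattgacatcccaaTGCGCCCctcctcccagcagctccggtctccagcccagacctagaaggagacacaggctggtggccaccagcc
Over the 250 bases shown and the next 50, Mt2 held 4 matches, Mt1 held 3, Slc30a10 held 3 and Slc30a1 held 2. In Slc30a10, 2 of the 3 matches overlapped on opposite strands. Of the 32851 promoters in the same table, 25.7% held at least 1 match in 300 bases, 7.11% at least 2, 1.97% at least 3 and 0.517% at least 4. Slc39a5 and Slc39a8 each had 2 annotated starts, and each had 1 match at only 1 of them. Slc39a4 and Slc39a14 were not in the promoter table. A match is a run of letters, and binding was not measured. The promoters shown were chosen after the values were seen, so their counts of matches are a description.

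Values are FPKM, reads scaled for the length of the transcript and the read total of the library, and the unit was inferred from the table. No read counts were given. A rough depth, read off the spacing of small values in single-transcript genes, was 12300000 to 14000000 reads for the 8 mice numbered 1 to 3 and 17200000 to 19600000 reads for the 4 mice numbered 4. The mice numbered 4 stood apart in every group, with column totals of 482194 to 504337 against 696286 to 765876 in the others, and with 872 to 1086 genes at 0 against 1332 to 1926. Each group holds exactly 1 of them, so the differences that stand out are also given from mice 1 to 3 and from the mice numbered 4 alone. Epithelial marker genes, all 8 present, summed to 6163 to 12384 FPKM, whereas the 6 squamous markers summed to no more than 6.44.

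The metallothioneins had the highest mean levels of the 8 genes in every group, and they also varied most between mice of 1 group. Per length, the group means in normal mice ran in the order Mt1, Mt2, Slc39a4, Slc39a5, Slc30a1, Slc39a14, Slc30a10 and Slc39a8. The ranges of Mt1, Mt2 and Slc39a4 overlapped there, and that of Mt2 also overlapped Slc39a5. Those of Slc39a14, Slc30a10 and Slc39a8 overlapped, and Slc30a1 overlapped Slc30a10 but not the other two. Mt1 ranged from 124 to 15197.5 FPKM over the 12 mice. Slc39a14 had the narrowest range, from 4.46 to 9.63 FPKM.

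**Figure D1:**
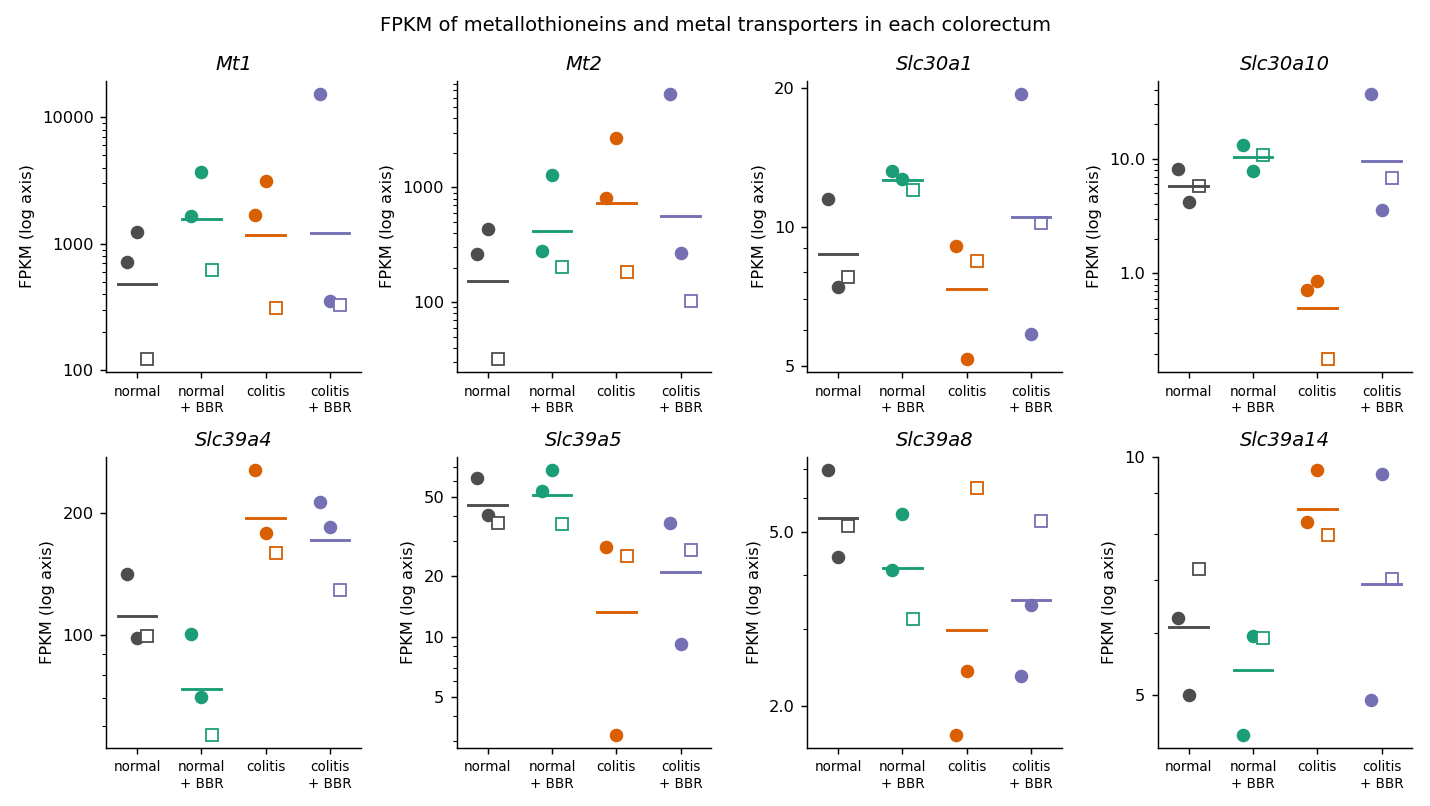
FPKM of each of the 8 genes in each mouse on log axes, by group. Filled circles are mice numbered 1 to 3, open squares the mice numbered 4, and bars the geometric mean of 3 mice; Slc30a10 lies under 1 FPKM in all 3 colitis mice, and 1 colitis mouse receiving BBR is highest for Mt1, Mt2, Slc30a1 and Slc30a10.

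Mt1, the most abundant metallothionein, stood at 722, 1235 and 124 FPKM in normal mice 1, 3 and 4. It stood at 1705, 3116 and 311 FPKM in colitis mice 1, 2 and 4. The 2 sets overlapped, and the mouse numbered 4 was the lowest of each. Normal mice receiving BBR had 1673, 3719 and 620.1 FPKM in mice 1, 3 and 4, again with the lowest value in mouse 4. Colitis mice receiving BBR had 15197.5, 355 and 331 FPKM in mice 2, 3 and 4. Mouse 2 of this group was thus 42.8-fold above the next mouse of its own group and 4.09-fold above the highest of the other 11 mice, which was a normal mouse receiving BBR.

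Mt2, its neighbour on chromosome 8, followed the same order within each group. It stood at 264, 434 and 32.1 FPKM in normal mice and at 807, 2688 and 185 FPKM in colitis mice. With BBR it stood at 279.9, 1273 and 201 FPKM in normal mice and at 6477, 266 and 103 FPKM in colitis mice. All 4 groups overlapped, and the mouse numbered 4 was again the lowest of each. Over the 12 mice the log2 values of Mt1 and Mt2 correlated at r = 0.95, the highest of the 11942 genes compared with Mt1, and at r = 0.92 without colitis mouse 2 receiving BBR. The Mt1 to Mt2 ratio lay between 1.16 and 5.98. The 2 genes share no run of 50 bases, although 45.8% of those of Mt2 also occur in the predicted gene Gm45774, which is not a row of the table.

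In colitis mouse 2 receiving BBR, Mt1 and Mt2 together made up 2.88% of all FPKM, against 0.0323% to 0.758% in the other 11 mice. The mean log2 value of the mice numbered 4 minus that of the others was -2.66 for Mt1 and -2.91 for Mt2. The median of this difference was 0.23 over all genes with a known transcript length and -0.12 over the 1008 genes with transcripts under 700 bases. Both metallothioneins were lowest in the mouse numbered 4 of all 4 groups, as were 6.11% of the tested genes. What sets these mice apart was not tested.

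**Figure D2:**
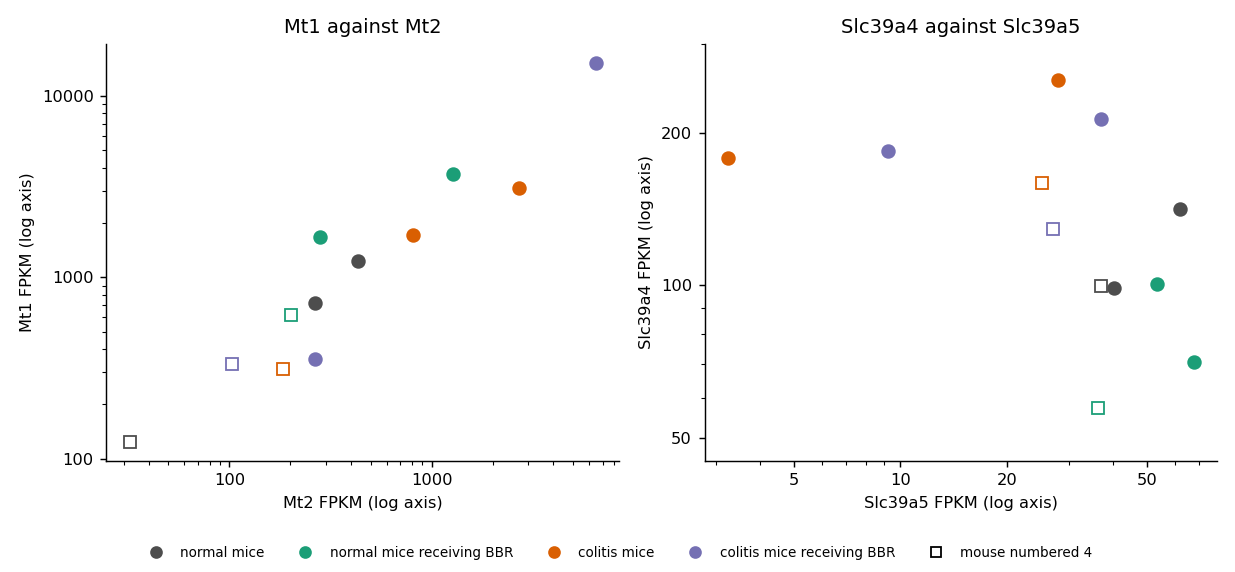
Mt1 against Mt2 (left) and Slc39a4 against Slc39a5 (right), in FPKM on log axes, 1 point per mouse and coloured by group. Mt1 and Mt2 lie along a line from the normal mouse numbered 4 to colitis mouse 2 receiving BBR, and the 6 mice given DSS have Slc39a4 to Slc39a5 ratios of 4.77 to 55.0 against 1.04 to 2.69 in the other 6.

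Slc30a1, the zinc exporter of the plasma membrane, varied less. It stood at 11.5, 7.43 and 7.81 FPKM in normal mice and at 9.11, 5.19 and 8.44 FPKM in colitis mice. The 2 groups overlapped. Normal mice receiving BBR had 13.2, 12.7 and 12.03 FPKM, all above the 3 normal mice and close together. Colitis mice receiving BBR had 19.4, 5.87 and 10.2 FPKM, and mouse 2 was again the highest of all 12 mice. For Slc30a1, 8.01% of 50-base runs also occur in 1700034H15Rik, which is not a row of the table.

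Slc30a10, the manganese exporter, had the widest group difference of the 8 genes. It stood at 8.11, 4.19 and 5.81 FPKM in normal mice 1, 3 and 4 and at 0.72, 0.86 and 0.18 FPKM in colitis mice 1, 2 and 4. All 3 colitis mice were below every other mouse. The lowest of these values corresponds to an estimated 20 reads on its single annotated transcript, above the limit of 3 reads that a value of 0.0420 FPKM would mark at most. Normal mice receiving BBR had 13.2, 7.78 and 10.9 FPKM and overlapped with normal mice. Colitis mice receiving BBR had 36.6, 3.56 and 6.80 FPKM in mice 2, 3 and 4, so that mice 3 and 4 were within or just below the range of normal mice and mouse 2 was the highest of the 12. Because Slc30a10 was chosen for these values, no test is given; 8.36% of its 50-base runs also occur in Gm2061, which is not a row of the table.

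Slc39a4, the luminal zinc importer, was highest in mice given DSS. It stood at 142, 98.6 and 99.7 FPKM in normal mice and at 255, 179 and 159.6 FPKM in colitis mice. Every colitis mouse was above every normal mouse. Normal mice receiving BBR had 101, 70.5 and 57.1 FPKM, and colitis mice receiving BBR had 213, 184 and 129 FPKM. The last 2 groups did not overlap, whereas each BBR group overlapped with its group without BBR.

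Slc39a5, the basal zinc importer, was lower in mice given DSS, with 1 mouse far below. It stood at 61.9, 40.4 and 37.0 FPKM in normal mice and at 27.9, 3.25 and 25.2 FPKM in colitis mice 1, 2 and 4. Every colitis mouse was below every normal mouse, and colitis mouse 2 was lowest of all 12 mice. Normal mice receiving BBR had 53.3, 67.8 and 36.3 FPKM, and colitis mice receiving BBR had 36.9, 9.23 and 27.0 FPKM. The latter lay below all normal mice, by a small margin for mouse 2. The Slc39a4 to Slc39a5 ratio did not overlap between the 6 mice given DSS and the other 6; this ratio was formed after the values were seen, and it was not tested.

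The 2 importers of both metals were low. Slc39a8 stood at 6.95, 4.39 and 5.17 FPKM in normal mice, at 4.10, 5.50 and 3.17 FPKM in normal mice receiving BBR, at 1.72, 2.40 and 6.32 FPKM in colitis mice, and at 2.34, 3.41 and 5.30 FPKM in colitis mice receiving BBR. All its groups overlapped. In both groups given DSS the mouse numbered 4 was the highest, and in normal mice receiving BBR it was the lowest. Slc39a14 stood at 6.26, 5.01 and 7.21 FPKM in normal mice, at 4.46, 5.94 and 5.90 FPKM in normal mice receiving BBR, at 8.27, 9.63 and 7.97 FPKM in colitis mice, and at 4.93, 9.51 and 7.01 FPKM in colitis mice receiving BBR. Every colitis mouse was above every normal mouse for Slc39a14, but the mice numbered 4 differed by only 0.14 log2 units.

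Colitis was first compared with normal mice, the comparison that gives the DSS effect without BBR. Slc39a4 was 1.73-fold higher, Slc39a14 was 1.40-fold higher and Slc39a5 was 3.40-fold lower on the log2(FPKM + 0.1) scale. Slc30a10 was 9.81-fold lower on the same scale. These were the 4 members whose groups did not overlap. Among all 15315 genes tested, 29.3% did not overlap, with 7.1% higher and 22.2% lower in colitis mice, against 2 and 1 of the 7 tested members. Slc30a10 is left out of this count, since its low values in colitis mice are part of the difference for which it was chosen.

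None of the 7 tested members passed the limit of 0.05 on the limma p adjusted over all genes, which 1.08% of genes passed, and 2 reached an unadjusted p of 0.05 or less, as did 21.4% of genes. The members' share of such genes was thus close to that of the table. These 2 were Slc39a4, with a log2 fold change of 0.79 (SE 0.29, limma unadjusted p = 0.0170, adjusted p = 0.155), and Slc39a5, with -1.76 (SE 0.72, limma unadjusted p = 0.0319, adjusted p = 0.194). For Slc39a4 the difference was 0.85 in mice 1 to 3 and 0.68 between the mice numbered 4, and with these mice as a block the limma adjusted p was 0.0417. With this block 9.22% of all genes passed. For Slc39a5 the differences were -2.37 and -0.55, and the log2 fold change was -0.77 without colitis mouse 2.

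The other members had larger errors or smaller differences. Mt1 had a log2 fold change of 1.30 (SE 1.44, limma adjusted p = 0.587) and Mt2 of 2.26 (SE 1.51, limma adjusted p = 0.376). Mice within these groups differed by up to 14.5-fold in these 2 genes. Mt1 had 1.29 in mice 1 to 3 and 1.33 between the mice numbered 4, and Mt2 had 2.12 and 2.52. Leaving out the normal mouse numbered 4, which leaves the low mice numbered 4 unevenly shared between the groups, brought the fitted values to 0.32 and 1.12, and leaving out the colitis mouse numbered 4 brought them to 2.26 and 3.25. Slc39a14 had 0.49 (SE 0.26, limma adjusted p = 0.290). Under quantile normalization it had 0.80 (limma unadjusted p = 0.0109, adjusted p = 0.128) and 3 members reached an unadjusted p of 0.05 or less, as did 19.6% of genes. Slc39a8 had -0.84 (SE 0.45, limma adjusted p = 0.292) and Slc30a1 had -0.25 (SE 0.38, limma adjusted p = 0.702). For Slc39a8 the mice numbered 4 went the other way, at 0.28, and without the colitis mouse numbered 4 the value was -1.37. The median log2 fold change was 0.49 over the 7 tested members and -0.32 over all tested genes. Quantile normalization brought the latter to -0.049 and turned the sign of Slc30a1 to 0.057.

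**Figure D3:**
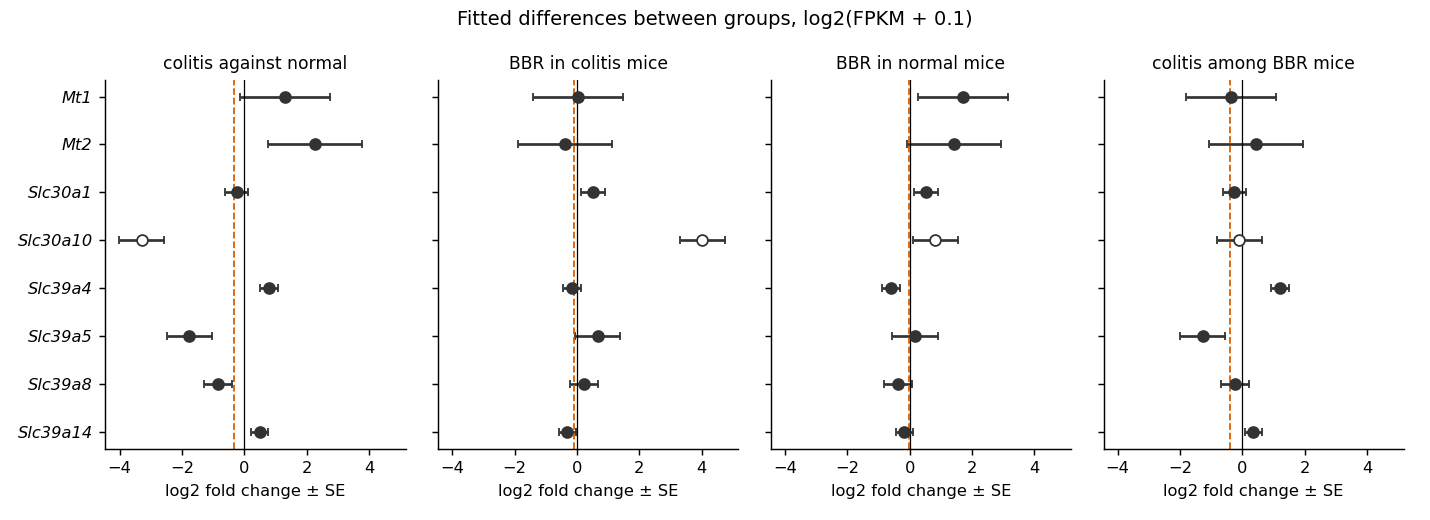
Log2 fold change with its standard error for each gene in 4 comparisons, from limma on log2(FPKM + 0.1) over all 12 mice. The dashed line is the median of all 15315 tested genes, and open circles mark Slc30a10, which was not tested; its values of -3.29 and 4.01 in the first 2 panels are the farthest from 0.

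BBR was next compared within colitis mice, the comparison that gives its effect during colitis. Slc30a10 was the 1 member of 8 whose groups did not overlap, with a log2 fold change of 4.01 (SE 0.72), while 7.08% of all genes did not overlap and 1.42% were higher. This comparison chose the gene, so nothing is read from the count or the standard error. The values that follow are a description and add no support. The difference was 3.71 in mice 1 to 3, 4.62 between the mice numbered 4, 3.06 without colitis mouse 2 receiving BBR and 4.72 without mouse 3 of that group.

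In the other 7 members BBR gave no detectable difference among colitis mice. None passed the limma adjusted limit or had an unadjusted p of at most 0.05, against 0% and 6.39% of all genes, and each limma adjusted p was 1.00. Mt1 had a log2 fold change of 0.037 (SE 1.44) and Mt2 of -0.39 (SE 1.51). Leaving out colitis mouse 2 receiving BBR, which leaves the low mice numbered 4 unevenly shared between the groups, brought them to -1.79 and -2.16. Over the other single mice left out they rose to as much as 0.97 and 0.83. Mt1 had 0.011 in mice 1 to 3 and 0.090 between the mice numbered 4, and Mt2 had -0.17 and -0.85. Slc30a1 had 0.51 (SE 0.38), and 0.072 without colitis mouse 2 receiving BBR. Slc39a5 had 0.66 (SE 0.72), and -0.34 without colitis mouse 2. Slc39a4 had -0.17 (SE 0.29), Slc39a8 had 0.22 (SE 0.45) and Slc39a14 had -0.31 (SE 0.26). At the standard errors of the metallothioneins, even a difference of several fold could go undetected with 3 mice a group. Mt2 in colitis against normal, at the same standard error, was 4.77-fold higher with a limma unadjusted p of 0.161. With the mice numbered 4 as a block, that limma unadjusted p was 0.0515.

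Colitis mouse 2 receiving BBR had the highest value of all 12 mice for Mt1, Mt2 and Slc30a1 among the 7 tested members, for Slc30a10, and for 3.71% of all tested genes. Some of its marker sums also lay outside those of all other mice. The 8 surface colonocyte markers, all present, summed to 25802 FPKM there, against 8073 and 11980 in the other 2 mice of its group and at most 15866 in the other 3 groups. The 8 epithelial markers went the other way, with 6163 FPKM there, the lowest of the 12 mice, against 9089 and 9473 in the other 2 mice of its group. The 7 smooth muscle markers did not set it apart, at 513 FPKM in this mouse, 496 in mouse 3 and 3551 in mouse 4. The part of these cell populations in the metallothionein values was not tested.

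BBR in normal mice showed its effect without colitis. Slc30a1 was 1.44-fold higher, with groups that did not overlap, as did those of 9.62% of all genes, with 4.17% of all genes not overlapping and higher. Its log2 fold change was 0.53 (SE 0.38, limma unadjusted p = 0.189), and it was 0.48 in mice 1 to 3 and 0.62 between the mice numbered 4. Mt1 had 1.71 (SE 1.44), with 1.40 in mice 1 to 3 and 2.32 between the mice numbered 4. Mt2 had 1.43 (SE 1.51), with 0.82 and 2.64. Over single mice left out, Mt1 ran from 0.73 to 2.39 and Mt2 from 0.29 to 2.17, both lowest without the normal mouse numbered 4. Slc39a4 had -0.59 (SE 0.29, limma unadjusted p = 0.0607) and Slc30a10 had 0.82 (SE 0.72), with overlapping groups. Slc39a5 had 0.17, Slc39a14 had -0.17 and Slc39a8 had -0.37. None of the 7 members passed the limma adjusted limit or an unadjusted p of 0.05, against 0% and 1.36% of all genes, and each limma adjusted p was 1.00. Under quantile normalization Slc39a4 had a limma unadjusted p of 0.0118, while 2.36% of genes reached 0.05. With the mice numbered 4 as a block its limma unadjusted p was 0.0164, while 372 of 15315 genes reached 0.05.

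Colitis was also compared among mice receiving BBR. Slc39a4 was 2.32-fold higher and was the 1 tested member of 7 whose groups did not overlap, against 20.2% of all genes and 2.26% in the same direction. Its log2 fold change was 1.21 (SE 0.29, limma unadjusted p = 0.00120, adjusted p = 0.190), with 1.23 in mice 1 to 3 and 1.17 between the mice numbered 4. With the mice numbered 4 as a block, which 1.75% of all genes passed, its limma adjusted p was 0.0426. It was 0.0386 without the 4 mice numbered 4, where 15% of all genes passed, and 0.0219 without the colitis mouse numbered 4 receiving BBR, where 14.7% passed. No other tested member had an unadjusted p of at most 0.05, as 19.7% of all genes had, and 0.0392% passed the adjusted limit. Under quantile normalization Slc39a14 went from 0.35 to 0.76 (limma unadjusted p = 0.0147, adjusted p = 0.291) and joined Slc39a4 at this limit, which 12.4% of genes then reached. Slc39a5 had a log2 fold change of -1.27 (SE 0.72), with overlapping groups, and of -0.68 without colitis mouse 3 receiving BBR. The metallothioneins had -0.37 and 0.44, both under their errors.

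The last comparison set colitis mice receiving BBR against normal mice. Slc39a5 was 2.15-fold lower and did not overlap, as did 22.7% of all genes, and 20.8% of all genes did not overlap and were lower. It had a log2 fold change of -1.10 (SE 0.72, limma adjusted p = 0.344). It was -0.52 without colitis mouse 3 receiving BBR, and the mice numbered 4 differed by -0.45. Slc39a4 had 0.62 (SE 0.29, limma unadjusted p = 0.0514, adjusted p = 0.249). Slc30a10 had 0.72, and -0.24 without colitis mouse 2 receiving BBR, so the direction of its difference from normal mice rested on that mouse. None of the 7 members passed the limma adjusted limit, which 0.0196% of all genes passed, and none had an unadjusted p of at most 0.05, which 20.1% had. Under quantile normalization 12.3% of genes had one, as did Slc39a4 (limma unadjusted p = 0.00790) and Slc39a14, which went from 0.18 to 0.62 (limma unadjusted p = 0.0381). These 5 comparisons share groups, so their values are not independent of each other. The interaction of BBR and colitis passed the limma adjusted limit for none of the 7 members and for 0% of all genes, and the smallest unadjusted p of a member was 0.321, against 2.42% of genes at or under 0.05.

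Of 18 other zinc transporters of the Slc30 and Slc39 families, 17 were in the table and 15 were tested, and none passed the limma adjusted limit in any of the 5 comparisons. In colitis mice 5 were higher and 10 lower, and their median log2 fold change was -0.20. The median over all tested genes was -0.32, and quantile normalization, which brought that to -0.049, gave 10 higher, 5 lower and a median of 0.045 for these transporters. The lowest was Slc39a13, a transporter of the secretory pathway needed by connective tissue, with a log2 fold change of -1.06 (SE 0.43, limma adjusted p = 0.189). Colitis mice had 1.40 to 4.25 FPKM of it and normal mice 4.92 to 6.10. The highest was Slc30a7, which loads zinc into the Golgi apparatus, with 0.49 (SE 0.23, limma adjusted p = 0.240) and 18.9 to 27.2 FPKM against 14.9 to 17.3. The groups also did not overlap for Slc39a1, a plasma membrane importer, at 67.0 to 79.2 against 51.2 to 57.3 FPKM, and for Slc39a3, at 4.08 to 6.78 against 7.68 to 8.25 FPKM. These 4 were the ones of the 15 without overlap, a share close to the 29.3% of all genes. The last 2 were named after their values were seen.

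**Figure D4:**
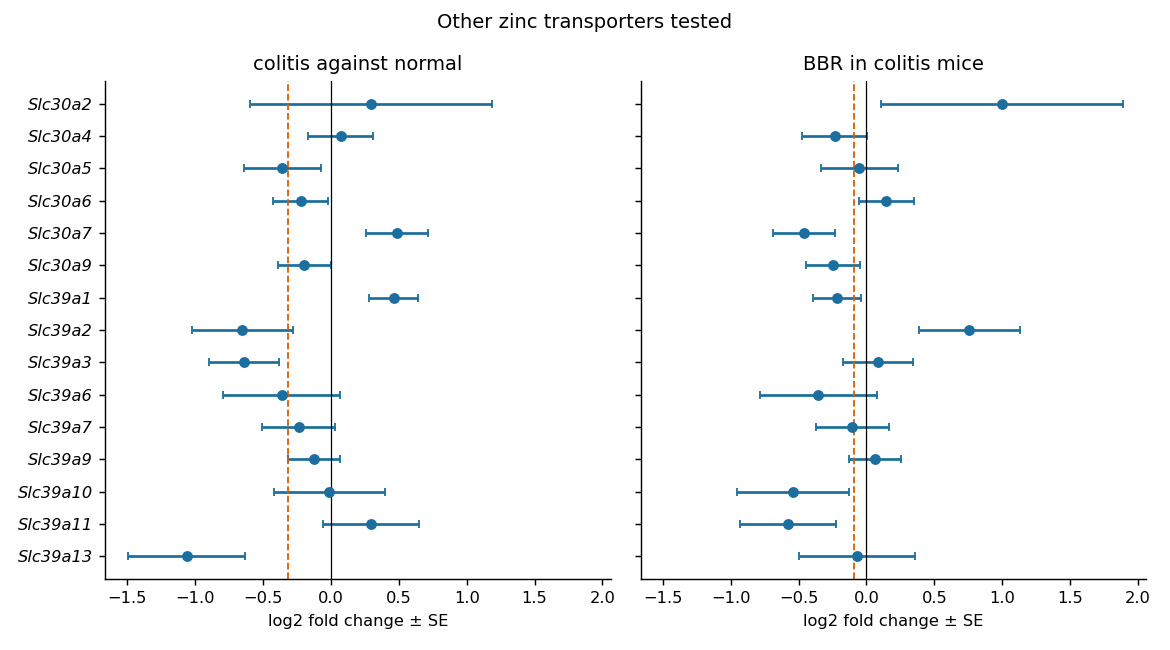
Log2 fold change with its standard error for the 15 other zinc transporters tested, in colitis against normal mice (left) and with BBR in colitis mice (right), from limma on log2(FPKM + 0.1). The dashed line is the median of all tested genes; Slc39a13 is lowest at -1.06 on the left, and Slc30a2, with a mean under 1 FPKM, is highest at 1.00 on the right.

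With BBR in colitis mice the other zinc transporters had a median of -0.10, 5 higher and 10 lower, near the median of -0.092 of all genes. Among those with a mean of at least 1 FPKM, Slc39a11 had the lowest log2 fold change, -0.58, and Slc30a6 the highest, 0.14. Slc30a2, a vesicular zinc transporter, was at 3.86 FPKM in colitis mouse 2 receiving BBR and at no more than 0.43 FPKM in the other 11 mice. This is the mouse that was highest for Mt1, Mt2 and both exporters, while Slc39a6, Slc39a10, Slc39a11 and Slc30a7 were each lowest there, as were 24.1% of all tested genes. Slc30a2 and these 4 were named after their values were seen. Mtf1, the metal sensor, was at 4.57 FPKM in that mouse, the lowest of 12, and at 4.64 to 9.19 FPKM in the others.

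The other metallothioneins of the table were Mt3, known from brain, and Mt4, known from stratified epithelium. Mt4 was at 25.5 FPKM in colitis mouse 2 receiving BBR, the highest of the 12, while the squamous markers summed to 0.60 FPKM there. It was at 0.15 to 0.17 FPKM in all 4 mice numbered 4 and at 1.09 to 25.5 FPKM in the other 8, so these did not overlap. Mt3 was at 0.99 to 3.81 FPKM in 11 mice and at 16.6 FPKM in colitis mouse 2. The colitis mice had at least 2.49 FPKM of it. Without overlap, this was above normal mice, at 0.99 to 2.29, and colitis mice receiving BBR, at 1.25 to 2.06. Of all genes, 29.3% and 7.08% did not overlap in these comparisons. Neither Mt3 nor Mt4 passed the limma adjusted limit in any comparison. The low Mt1, Mt2 and Mt4 values of the mice numbered 4 did not extend to Mt3, which stood at 1.98 to 2.49 FPKM there.

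Among 8 other genes of manganese handling, none passed the limma adjusted limit in any of the 5 comparisons. In colitis mice 1 was higher and 7 were lower (median log2 fold change -0.18), beside a median of -0.32 over all tested genes. Quantile normalization gave 3 higher and 5 lower (median -0.0083). With BBR in colitis mice 4 were higher and 4 lower (median 0.042). In colitis, Glul, the manganese-dependent glutamine synthetase, had the lowest value, -0.73 (SE 0.36), and Atp2c1, the Golgi pump for calcium and manganese, the highest, 0.75 (SE 0.30). Slc40a1, the iron exporter, which can also carry manganese, was at 454 FPKM in colitis mouse 2 receiving BBR and at 49.4 to 284 FPKM in the other 11 mice. It was named after its values were seen. In the same mouse Slc11a2 was also the highest of the 12, at 21.7 FPKM, whereas Atp2c1 and Tmem165 were the lowest, at 9.07 and 15.3 FPKM.

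The genes whose log2 values were most like each member over the 12 mice were sought among those with a mean of at least 1 FPKM. They differed between members. Mt1 was followed by Mt2, Fuca2 (r = 0.94) and Ctss (r = 0.91), and Mt2 by Mt1, 4931406C07Rik (r = 0.93) and Sar1b (r = 0.93). Slc30a1 was most like Hsdl2 (r = 0.93), Maoa (r = 0.92) and Zfyve16 (r = 0.91), and Slc30a10 most like Dio1 (r = 0.95), Naaladl1 (r = 0.94) and Srr (r = 0.93). Slc39a4 was like 1810065E05Rik (r = 0.95) and Ttc22 (r = 0.94), and Slc39a5 most like Prmt9, Mmut and Decr2 (r = 0.97 to 0.98). Slc39a8 was most like Adpgk, Tmem107 and G3bp1 (r = 0.95 to 0.97), and Slc39a14 most like Snx10, Plekhn1 and Arid3a (r = 0.94 to 0.96). These are the highest of 11942 values each, over 12 points that share group, mouse number and library, and no test is given.

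Between members, Slc30a1 correlated with Slc39a5 at r = 0.74 and with Slc30a10 at r = 0.68. Slc39a14 went the other way, with r = -0.76 to Slc30a1, -0.76 to Slc39a5 and -0.72 to Slc30a10. Mt1 correlated with Slc30a1 at r = 0.47 over the 12 mice and at r = 0.14 without colitis mouse 2 receiving BBR. Mt1 correlated with Slc30a10 at r = 0.31, and at -0.011 without that mouse. Over the 12 mice the likeness of the metallothioneins and the exporters thus rested on 1 mouse, whereas that of Mt1 and Mt2 did not. Within groups, with that mouse kept, Slc30a10 correlated with Mt1 at r = 0.74 and with Mt2 at r = 0.64. For Slc30a1 these values were 0.49 and 0.35. Within-group values are not given without that mouse.

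Marker sums of some other cell types also moved with DSS. The 7 neutrophil markers summed to 0.40 to 3.21 FPKM in normal mice, to 0.59 to 2.96 in normal mice receiving BBR, to 45.7 to 494 in colitis mice and to 2.80 to 219 in colitis mice receiving BBR, with 1 marker at 0 in all mice of each normal group. The smooth muscle markers summed to 1672 to 3182, 2360 to 5067, 88.3 to 698 and 496 to 3551 FPKM in the same groups. The 7 macrophage markers summed to 166 to 220, 172 to 259, 240 to 859 and 134 to 227 FPKM, so that colitis mice were above normal mice and above colitis mice receiving BBR without overlap. With BBR in colitis mice all 7 had lower values, 5 with a limma unadjusted p of at most 0.05 and 4 without overlap, against 6.39% and 7.08% of all genes, and none passed the limma adjusted limit. The 6 fibroblast markers summed to 259 to 444, 299.5 to 593, 177 to 696 and 166 to 254 FPKM, so that colitis mice overlapped with normal mice, while colitis mice receiving BBR lay below both normal groups. The 7 goblet cell markers summed to 15031 to 34467, 16402 to 31366, 9937 to 74595 and 17285 to 83177 FPKM, and all 4 groups overlapped. With BBR in colitis mice all 7 were higher (median log2 fold change 0.60). Of these, 1 was without overlap, against 7.08% of all genes, and none had a limma unadjusted p of at most 0.05. No smooth muscle, macrophage, fibroblast or goblet cell marker was at 0 throughout a group. The part of these shifts in the members' differences was not tested.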

How the data were processed

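RNA of 12 mice was analysed as deposited: the authors filtered reads with SOAPnuke, aligned them with Bowtie2 2.2.5 and estimated expression with RSEM 1.2.12, and the submitters' processing notes name mm9. The deposited table gives each gene 1 value in each mouse, taken to be FPKM from its magnitude. TPM over part of the genes cannot be told apart, and the depths and read numbers estimated here hold only for FPKM. The paper names Ribo-Zero libraries on a BGISEQ-500 and the labels an Illumina TruSeq kit, so strand use in counting is unknown. Genes with a mean of at least 0.1 were fitted on log2(FPKM + 0.1) with limma 3.58.1 in R 4.3.3, 1 mean per group and an empirical Bayes trend, with Benjamini-Hochberg adjustment over all 15315 genes and a limit of 0.05. The fit was tested on simulated data. Groups were called not overlapping when every mouse of 1 group was above every mouse of the other. Where p-values are given, mice are the replicates. The members and lists were chosen with earlier results of these data known. All members were named; of other lists, genes past the adjusted limit and the lowest and highest with a mean of at least 1, and for likeness the top 3 by Pearson r, of which 1 is not reported here. Promoters came from RefSeq on GRCm38.p6, matched by symbol (6 of 8 members). Other normalizations, filters, pseudocounts, blocks and left-out mice were tried.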

Additional observations from a re-analysis of the deposited data

How the results depend on the processing

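The adjusted-limit count stayed at 0 of 7 members in all 6 comparisons under other pseudocounts, filters, normalizations, fits of the compared groups alone, no trend and the replicate block. Slc39a4 made the exceptions: with the mice numbered 4 as a block the count was 1 in colitis against normal and 1 in colitis among mice receiving BBR, where it was also 1 without the 4 mice numbered 4 and ranged from 0 to 1 over single mice left out. Without the mice numbered 4, 15% of all genes passed there, and 14.7% did without the colitis mouse numbered 4 receiving BBR, the 1 left-out mouse that gave a count of 1. Same-numbered mice had deviations correlated at 0.0777 to 0.751 (mean 0.340), against a mean of -0.103 for different numbers, and among mice 1 to 3 the means were 0.205 and 0.193. Between the mice numbered 4 the values ran from 0.357 to 0.751 (mean 0.497), and the block of these mice was fitted as an alternative. Not every value of same-numbered mice was over 0.1 and the labels give no shared source, so the numbers were not taken as pairs. Under the replicate block Mt2 among mice receiving BBR had a log2 fold change of -0.66 and the interaction of Slc30a1 was 0.21, both with the sign turned. Among the other zinc, copper, manganese and vitamin D genes, this block brought Slc30a7 (limma adjusted p = 0.0416) and Atp2b1 (0.0350) past the limit in colitis against normal, as it did 734 of 15315 genes, and the block of mice numbered 4 brought Slc37a2 past it (0.0359). Lcn2 of the Stat3 list passed under both (0.0172 and 0.0146).

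Signs turned only for values that passed no limit. Quantile normalization gave Slc30a1 0.057 in colitis, 0.083 in colitis among mice receiving BBR and 0.026 in the interaction, Mt1 -0.15 for BBR in colitis mice, and Slc39a8 0.27 among mice receiving BBR. Centring on the median gave Slc30a1 0.091, 0.19 and 0.099 in the same 3 comparisons, Mt1 0.082 and Slc39a8 0.21 among mice receiving BBR. Without the 4 mice numbered 4 the interaction of Slc30a1 was 0.15. Slc30a10, not tested, had -0.10 in colitis among mice receiving BBR, 0.25 under quantile normalization, 0.35 centred, 0.18 without the 4 mice numbered 4 and -1.06 to 0.60 over single mice left out. A pseudocount of 1 brought Slc30a10 to -2.14 in colitis, 2.82 with BBR in colitis mice and 2.09 in the interaction, by construction nearer to 0.

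Leaving out 1 mouse at a time turned the sign within these ranges. For BBR in colitis mice Mt1 ran from -1.79 to 0.97, Mt2 from -2.16 to 0.83, Slc39a4 from -0.33 to 0.031, Slc39a5 from -0.34 to 1.25 and Slc39a8 from -0.16 to 0.75. For BBR in normal mice Slc39a5 ran from -0.040 to 0.41, and in colitis against normal Slc30a1 ran from -0.40 to 0.0033. In colitis among mice receiving BBR Mt1 ran from -2.19 to 0.57, Mt2 from -1.33 to 1.66, Slc30a1 from -0.70 to 0.15 and Slc39a8 from -0.54 to 0.034. In colitis with BBR against normal Mt1 ran from -0.49 to 2.28, Slc30a1 from -0.17 to 0.68 and Slc39a14 from -0.051 to 0.42. In the interaction Slc30a1 ran from -0.45 to 0.40, Slc39a5 from -0.51 to 1.08 and Slc39a14 from -0.37 to 0.10. The interaction has no fit of the compared groups alone apart from the one over all groups.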

Other observations

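Other gene groups that respond to signals known to act on these genes were examined, with no test of any link. Among 13 genes of copper handling, none passed the limma adjusted limit in any of the 5 comparisons. In colitis mice 6 were higher and 7 lower, and the median log2 fold change was near 0, beside -0.32 over all tested genes. Quantile normalization gave 8 higher and 5 lower (median 0.29). Steap4, a metalloreductase, had the highest, 3.45 (SE 1.02, limma adjusted p = 0.108), at 12.1 to 40.2 FPKM in colitis mice against 1.14 to 3.62 in normal mice. Steap3 had the lowest, -1.43 (SE 0.63, limma adjusted p = 0.219).

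All 5 tested genes of the vitamin D response of the gut were lower in colitis mice (median log2 fold change -1.55), and all 5 were higher with BBR in colitis mice (median 1.196, and 0.65 without colitis mouse 2 receiving BBR). The medians over all tested genes were -0.32 and -0.092. None passed the limma adjusted limit. With BBR in colitis mice the groups of all 5 overlapped. S100g, which binds calcium, was at 729 FPKM in colitis mouse 2 receiving BBR, the highest of the 12 mice and the mouse with the highest Slc30a10. In mice 3 and 4 of that group S100g was at 50.5 and 2.95 FPKM. The last value lay within the range of colitis mice, 2.12 to 9.79 FPKM. Of 8 glucocorticoid responsive genes, 5 were lower and 3 higher in both comparisons and none passed the limma adjusted limit. Of 8 Stat3 responsive genes, 7 were higher in colitis mice and 4 passed the limma adjusted limit, which 1.08% of all genes passed, namely Socs3, Saa3, Reg3g and Reg3b. Socs3, a feedback inhibitor of cytokine signalling, rose by a log2 fold change of 3.74 (SE 0.40, limma adjusted p = 0.00325). With BBR in colitis mice 7 of the 8 were lower and 1 was higher (median log2 fold change -1.31), with overlapping groups. Among those lower, 4 had a limma unadjusted p of at most 0.05, against 6.39% of all genes, and none passed the limma adjusted limit.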
